A study of Mus musculus with 70 samples.

Results

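Myelin is the stack of glial membrane that is wrapped around axons, and in the brain and spinal cord it is made by oligodendrocytes. Its adult RNA level in a piece of brain tissue is widely used as a measure of how much white matter the piece holds. The genes of the sheath and its cell were described here, namely Mbp, Mobp, Mog, Mag, Mal, Cnp, Cldn11, Ermn and Opalin. They were taken by name, by a rule that used no measured value, and all 9 were found among the 34677 genes of the gene-level table.

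Myelin basic protein (Mbp) and myelin-associated oligodendrocyte basic protein (Mobp) lie on the cytoplasmic face of the membrane and hold its layers together. Myelin oligodendrocyte glycoprotein (Mog) sits on the outermost layer and myelin-associated glycoprotein (Mag) on the innermost, next to the axon. Mal is a membrane proteolipid of lipid transport, Cnp is the enzyme that keeps cytoplasmic channels in the sheath open, and Cldn11 (claudin 11) forms the tight junctions between its layers. Ermn (ermin) binds actin in myelinating oligodendrocytes, and Opalin is a transmembrane protein of the same cells. Oligodendrocyte precursors express little of these genes, whose transcription rises when the precursors differentiate, after birth in most of the mouse brain, under the transcription factors Sox10 and Myrf.

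Messenger RNA was measured in brain regions of energy balance and in some additional regions of C57BL/6NTac mice. Of the 70 libraries, 57 were of 18 adult regions at P56 and 9 of 4 regions of the embryonic brain at E14.5. The other 4 were of the embryonic stem cell (mESC) clones B6-1 and B6-2. No treatment of the mice and no genetic change was part of the study. The adult mice were males, and each brain library held frozen punches of several mice, save 1 library of the nucleus accumbens (ACB) that came from a single mouse. Libraries of different regions shared mice, so their values were not fully independent, and a punch takes the fibres that cross a nucleus together with the nucleus. The mESC lines were 2 C57BL/6 clones that were first grown on feeder fibroblasts. For RNA they were then grown without feeders, in medium with leukaemia inhibitory factor and small-molecule inhibitors.

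The adult regions were the frontal pole cortex (FRP), anterior cingulate area (ACA) and entorhinal area (ENT) of the cerebral cortex; ACB; the arcuate (ARH), dorsomedial (DMH), paraventricular (PVH) and ventromedial (VMH) nuclei and lateral area (LHA) of the hypothalamus; the ventral tegmental area (VTA); the parabrachial nucleus (PB), nucleus of the solitary tract (NTS) and dorsal-vagal complex (DVC) of the hindbrain; and the central lobule II (CENT2), culmen (CUL4,5), uvula (UVU), flocculus (FL) and nuclei (CBN) of the cerebellum. The embryonic regions were forebrain (F, 1 library), midbrain (M), hindbrain (H) and the terminal and peduncular hypothalamus (THy/PHy). The libraries held 9074581 to 22229582 estimated counts. Of 20 genes with a known place of expression, 18 were highest in that place, and the exceptions were Sim1 and Calca. The first VTA library stood apart with 39.6% of its TPM (a transcript level scaled for transcript length and library size) in mitochondrial genes, against a median of 7.71% over the adult libraries.

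Sequence upstream of the genes is shown here because the members moved together across regions. Each line gives the reference sequence of RefSeq (GRCm38.p6) from 250 bases before to 50 bases after the start that RefSeq gives for the gene, 5′ to 3′ on the strand of the gene, for the 4 members in which letters of either searched motif were found. Capitals mark ACAAAG, the core letters bound by SOX factors such as Sox10, and CTGGCAC, letters bound by Myrf, each on either strand (CTTTGT and GTGCCAG on the opposite one). No match overlapped another. The windows are chr7:30914814-30915113 (minus strand) for Mag, chr9:120149492-120149791 (plus) for Mobp, chr11:100574689-100574988 (plus) for Cnp and chr19:41077064-41077363 (minus) for Opalin.
Mag: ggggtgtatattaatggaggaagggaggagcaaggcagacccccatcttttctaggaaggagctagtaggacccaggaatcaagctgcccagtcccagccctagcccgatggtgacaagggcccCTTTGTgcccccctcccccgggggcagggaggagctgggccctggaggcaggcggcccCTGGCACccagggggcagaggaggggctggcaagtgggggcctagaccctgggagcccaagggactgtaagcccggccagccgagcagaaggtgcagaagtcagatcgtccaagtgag
Mobp: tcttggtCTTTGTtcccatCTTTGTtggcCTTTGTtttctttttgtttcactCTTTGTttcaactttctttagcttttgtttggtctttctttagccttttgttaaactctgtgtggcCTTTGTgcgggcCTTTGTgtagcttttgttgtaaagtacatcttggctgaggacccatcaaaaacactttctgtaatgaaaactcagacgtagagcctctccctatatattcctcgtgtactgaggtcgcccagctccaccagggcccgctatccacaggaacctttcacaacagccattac
Cnp: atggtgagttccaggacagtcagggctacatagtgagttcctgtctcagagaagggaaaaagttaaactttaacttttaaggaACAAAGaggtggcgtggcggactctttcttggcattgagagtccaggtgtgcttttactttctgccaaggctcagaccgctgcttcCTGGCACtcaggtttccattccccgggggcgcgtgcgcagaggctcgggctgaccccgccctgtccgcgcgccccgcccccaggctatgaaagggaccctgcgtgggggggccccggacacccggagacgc
Opalin: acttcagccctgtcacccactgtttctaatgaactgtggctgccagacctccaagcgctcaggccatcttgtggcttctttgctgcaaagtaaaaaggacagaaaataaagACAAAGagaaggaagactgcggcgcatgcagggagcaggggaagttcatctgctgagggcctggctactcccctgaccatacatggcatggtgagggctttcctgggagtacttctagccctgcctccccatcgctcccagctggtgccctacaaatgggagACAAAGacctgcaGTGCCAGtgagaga
Of the 8 members with a sequence in the table, ACAAAG was found in 4, against 18.7% of 27025 promoters of the same length, and CTGGCAC was found in 3 (Mag, Cnp and Opalin), against 4.995% of these promoters. Mobp held 6 copies of the SOX-type letters, all on the opposite strand and all before the start. A match of letters is a description of these windows only.

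In the GENCODE annotation of GRCm38, whose start of Mag, Mobp and Cnp differs somewhat from that of RefSeq, the genes lie at chr9:120149707-120181484 (Mobp), chr17:37010743-37023398 (Mog), chr7:30899176-30914873 (Mag), chr2:127633226-127656695 (Mal), chr11:100574904-100591729 (Cnp), chr3:31149920-31164324 (Cldn11), chr2:58045113-58052864 (Ermn) and chr19:41061710-41077113 (Opalin), and all 9 are protein coding. Cnp overlaps Dnajc7 on the opposite strand (adult mean 328 TPM), and the strand setting of the quantification was not given in the sources used here, so that part of the reads of the pair could not be told apart.

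In the adult brain, the summed level of the 9 genes ranged from 601 ± 34.9 TPM (SD, n = 3) in ACA to 13172 ± 3404 TPM (n = 3) in CBN, or 21.9 times higher (SD 5.81). This was 0.0601% of all TPM in ACA and 1.32% in CBN. Mbp made up 61.4% of the sum and Mobp 17.6%, whereas Opalin made up 0.468%.

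**Figure D1:**
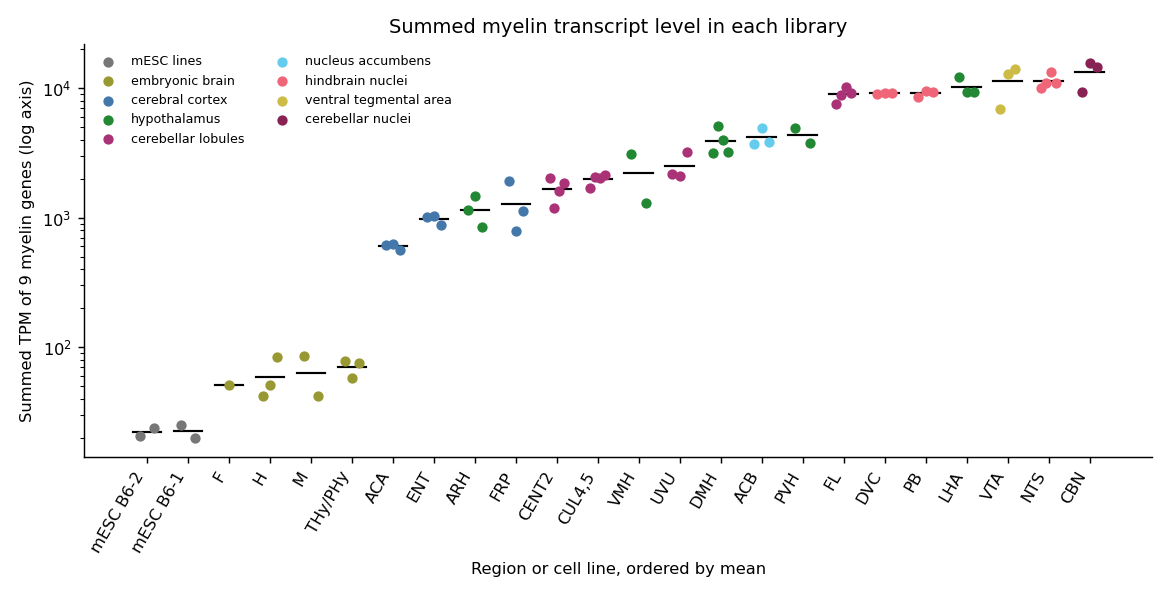
Summed TPM of the 9 myelin genes (vertical log axis) in each of the 70 libraries (points), with the 24 groups ordered by their mean (bars). The mESC and embryonic libraries lie between 19.98 and 85.1 TPM and the adult ones between 561 and 15658 TPM.

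The summed level rose from ACA through ENT (971 ± 79.4 TPM), ARH (1149 ± 310 TPM), FRP (1279 ± 577 TPM), CENT2 (1659 ± 366 TPM), CUL4,5 (1975 ± 200 TPM), VMH (2189 ± 1259 TPM) and UVU (2492 ± 613 TPM). DMH (3867 ± 899 TPM), ACB (4160 ± 660.1 TPM) and PVH (4341 ± 862 TPM) followed, and FL (8916 ± 1105 TPM), DVC (9071 ± 48.9 TPM), PB (9105 ± 460.1 TPM), LHA (10248 ± 1649 TPM), VTA (11225 ± 3839 TPM), NTS (11251 ± 1433 TPM) and CBN made up the upper end. Of the 17 steps between neighbours in this order, 14 were not larger than the larger of both SDs. The 3 larger steps lay between ACA and ENT, between UVU and DMH, and between PVH and FL. The order thus held 3 breaks, and between them neighbouring regions were not ordered beyond their spread.

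Every gene was lowest in ACA. Mbp, Mobp, Mog, Mag, Cnp and Ermn were highest in CBN, whereas Mal, Cldn11 and Opalin were highest in LHA. Between both extremes, the region means of Cnp differed least, by a factor of 11.99 (63.0 ± 1.94 TPM in ACA and 755 ± 165 TPM in CBN), and those of Ermn differed most, by 35.1 (3.70 ± 0.156 TPM and 130 ± 25.5 TPM). For Mbp it was 24.2, from 349 ± 23.6 TPM to 8428 ± 2217 TPM.

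**Figure D2:**
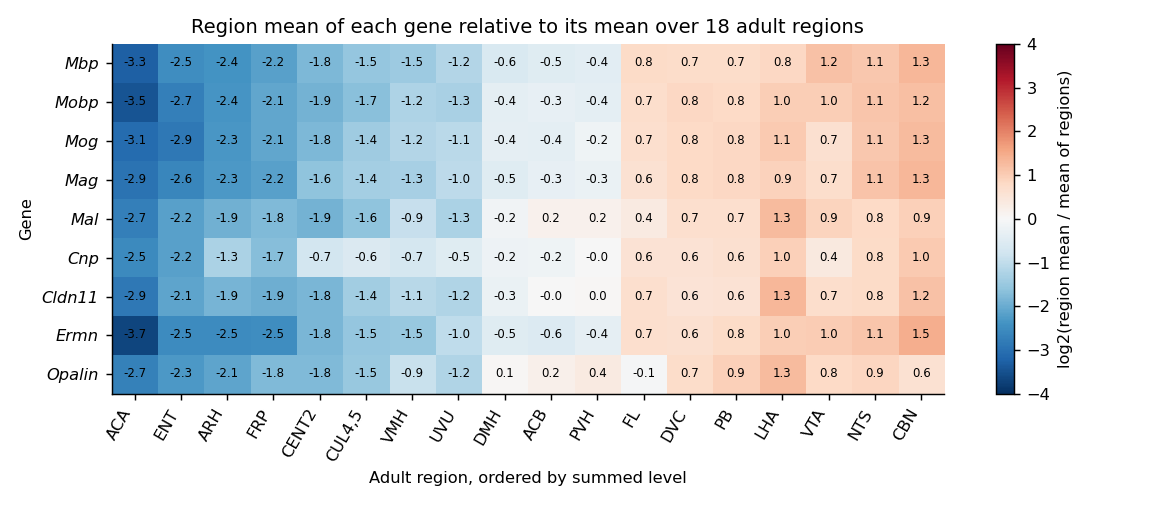
Level of each myelin gene (rows) in each adult region (columns), as the log2 of the region mean over the mean of the 18 region means. All 9 rows are lowest in ACA, and the range is narrowest in Cnp (11.99 times between extremes) and widest in Ermn (35.1 times).

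Over the 18 adult region means, the members correlated with each other with Pearson's r of 0.93 (Cnp with Opalin) to 0.998 (Mog with Mag), with a median of 0.981 over 36 pairs. These correlations are descriptions, since the points share libraries and, in part, mice and batches. Among 12071 other genes with a mean of at least 5 TPM, the 10 whose log2 level followed the mean of the members most closely over the same 18 regions included Myrf (r = 0.996), Galnt6 (0.995), Tmem88b (0.995), Fa2h (0.994), Pllp (0.992), Tmem63a (0.991), Ugt8a (0.991), Plekhh1 (0.990) and Rhog (0.990). Myrf is a transcription factor of myelinating oligodendrocytes, Fa2h and Ugt8a are enzymes of the galactolipids of myelin, and Pllp (plasmolipin) is a membrane protein of myelin.

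Lists of other cell types differed in how they ran along the members. On a log2 scale over the 18 regions, the summed level of the members correlated with that of 24 other myelin and mature oligodendrocyte genes with r = 0.983 and with that of 9 oligodendrocyte transcription factors with r = 0.963. For single factors, r with the mean log2 level of the members was 0.996 for Myrf, 0.962 for Sox10 and 0.858 for Olig1. It was 0.836 for Olig2, 0.82 for Nkx6-2, 0.533 for Nkx2-2, 0.468 for Zfp536, 0.369 for Zfp488 and 0.241 for St18. With 8 genes of precursors and premyelinating cells r of the summed levels was 0.964. The genes of that list differed in this. Their r with the mean log2 level of the members was 0.987 for Bcas1, 0.969 for Enpp6 and 0.864 for Lims2. It was 0.107 for Pdgfra, 0.187 for Cspg4, 0.247 for Gpr17 and 0.562 for C1ql1. With 3 neurofilament genes, which encode the cytoskeleton of large axons, r of the summed levels was 0.794. With astrocyte genes r was 0.413, with choroid plexus genes 0.462, with endothelial and red cell genes 0.319, with microglia genes -0.05 and with neuron genes -0.30. Single genes of these lists differed in their r with the mean log2 level of the members. It was 0.755 for Flt1, 0.594 for Pecam1 and 0.576 for Cldn5 (endothelial), and 0.25 to 0.28 for the red cell genes. The astrocyte genes ran from -0.575 (Slc1a3) to 0.575 (Gja1) and the neuron genes from -0.618 (Syt1) to 0.437 (Tubb3). With the sum of Prx, Egr2, Ncmap, Pmp22 and Pmp2, which mark Schwann cells, the myelinating cells of peripheral nerve, r was 0.871. Most of that sum was Pmp22, which central tissue also expresses, with an adult mean of 37.3 TPM. Ncmap was at 2.79, Egr2 at 2.43, Prx at 0.609 and Pmp2 at 0.0408 TPM.

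The first comparison asked how far the myelin RNA of the hindbrain nuclei differs from that of the cortex. In the 9 cortical libraries the summed level was 561 at its lowest, 879 at the median and 1915 TPM at its highest, and in the 10 libraries of PB, NTS and DVC it was 8579, 9368 and 13306 TPM. Every hindbrain library lay above every cortical one, for the sum and for each gene, as was the case for 12.2% of the 19351 tested genes in the TPM table. All 9 genes were called higher in the hindbrain nuclei (adjusted p below 0.05 and a log2 fold change over 1), against 10.6% of all 19980 genes tested.

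Mbp ranged from 322 through a median of 558 to 1136 TPM in the cortex and from 5256 through 5739 to 8361 TPM in the hindbrain. The difference was a log2 fold change of 3.31 ± 0.16 (SE; edgeR quasi-likelihood test, adjusted p = 7.51e-25). Ermn changed most, from 3.52 to 11.2 TPM (median 6.08) in the cortex to 69.6 to 116 TPM (median 85.1), a log2 fold change of 3.68 ± 0.15 (edgeR adjusted p = 1.02e-27). Cnp changed least, from 60.7 to 151 TPM (median 82.2) to 518 to 674 TPM (median 581), a log2 fold change of 2.76 ± 0.12 (edgeR adjusted p = 5.52e-26). The median over the members was 3.31, and over all genes tested 0.0029.

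The other genes of the lineage went along in part. Of the 24 other myelin and mature oligodendrocyte genes, 23 were called higher and 0 lower, with a median of 2.84. Among them were the gap junction gene Gjb1 at 4.04, the aspartoacylase gene Aspa at 3.33, transferrin (Trf) at 3.97 and the protease gene Klk6 at 7.71 on the log2 scale. Omg, which neurons also express, had a log2 fold change of 0.08 (adjusted p = 0.412). Of the 9 transcription factors 8 were called higher, among them Myrf at 3.09, Sox10 at 1.96 and Olig2 at 1.47, and Zfp488 had 0.34. Of the 8 genes of precursors and premyelinating cells only Bcas1 (3.42) and Enpp6 (2.70) were called. The precursor genes Pdgfra, Cspg4 and C1ql1 had -0.07, 0.11 and 0.46. Gpr17, Neu4 and Lims2 had 0.09, 0.75 and 0.73.

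**Figure D3:**
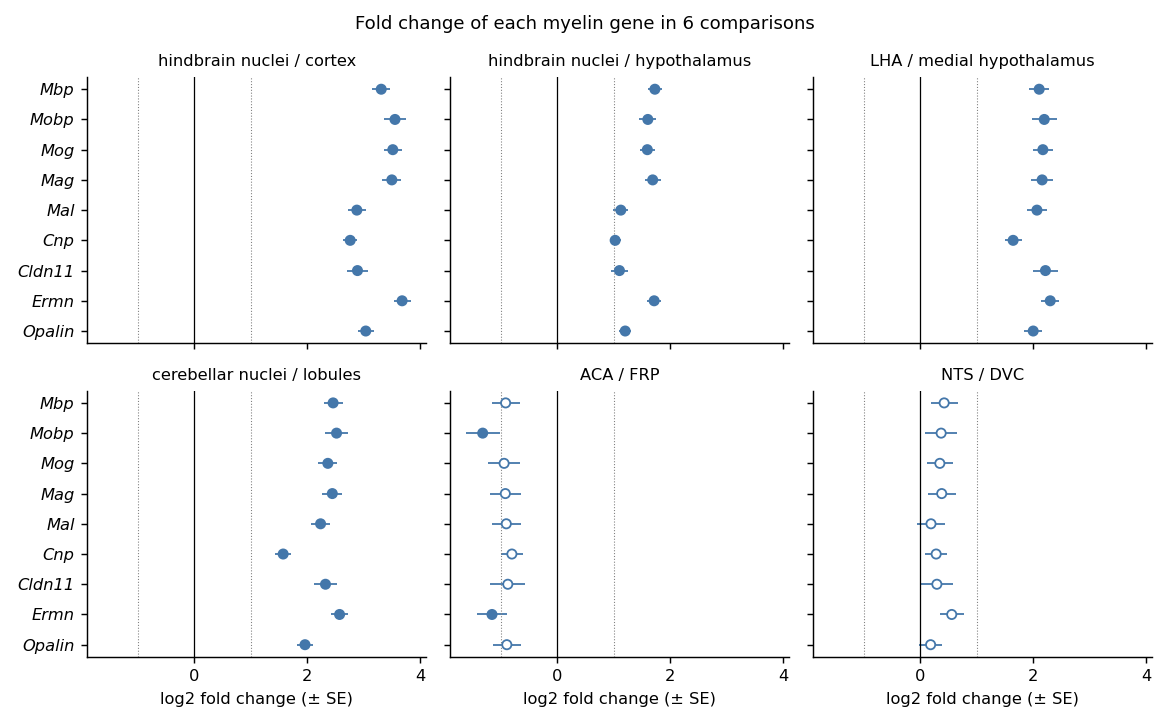
Log2 fold change of each myelin gene (points, with SE bars) in 6 comparisons of adult regions; filled points were called and dotted lines mark a log2 fold change of 1 in either direction. All 9 genes are filled in the first 4 comparisons, Mobp and Ermn in ACA against FRP and no gene in NTS against DVC.

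Neurofilament genes moved with this difference and their part in it was not tested. Summed over Nefl, Nefm and Nefh, they were at 283 to 517 TPM in the cortex and 1410 to 2988 TPM in the hindbrain nuclei, and 3 of 3 were called higher. Microglia genes went the other way, with 1 of 6 called lower, from 187 to 234 TPM in the cortex to 127.5 to 170 TPM. Of the choroid plexus genes 2 of 5 were called higher, with a summed level of 6.54 TPM at the median of the hindbrain libraries and 10707 TPM in the highest, against 1.11 to 6.16 TPM in the cortex. Of 8 astrocyte genes 3 were called higher and 1 lower, and of 7 neuron genes 2 were called lower. Among the Schwann cell genes, Pmp22, which central tissue also expresses, was called higher (from a mean of 11.2 to 57.4 TPM), as was Ncmap (1.03 to 3.68 TPM), whereas Prx (0.635 to 0.250 TPM) and Egr2 (8.83 to 0.195 TPM), which active neurons express as well, were called lower. The part of these cell types was not tested either. In bulk punches, more oligodendrocytes and more RNA in each of them cannot be told apart.

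The hypothalamus lay between both. Its 14 libraries ran from 839 through a median of 3472 to 12151 TPM for the sum, and so overlapped the cortex at the lower and the hindbrain nuclei at the upper end. All 9 genes were called higher in the hypothalamus than in the cortex, against 9.13% of all genes, with log2 fold changes from 1.58 ± 0.14 (Mbp) to 1.97 ± 0.13 (Ermn). All 9 were also called higher in the hindbrain nuclei than in the hypothalamus, against 4.25% of all genes. There the log2 fold changes of Mbp (1.73), Ermn (1.72), Mag (1.69), Mobp (1.60) and Mog (1.60) lay above those of Opalin (1.203), Mal (1.12), Cldn11 (1.10) and Cnp (1.02). Cnp and Cldn11 were close to the fold threshold and fell under it, to 0.97 and 0.99, without the second VMH library, and Cnp also with limma on log2 TPM at both pseudocounts (0.92). Neurofilament genes moved with this difference too, with 3 of 3 called higher (Nefl at 1.87, Nefm at 2.75 and Nefh at 2.84) and a summed level of 217 to 709.8 TPM in the hypothalamus. Of the astrocyte genes S100b (1.47) was called higher and Slc1a3 (-1.35) lower, and of the neuron genes Snap25 (1.14) was called higher. Their part in the difference was not tested. These comparisons share the hypothalamic libraries, and the regions were weighted equally.

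Within the hypothalamus, LHA stood apart. The 3 LHA libraries had summed levels of 12151, 9234 and 9360 TPM, and the 11 libraries of ARH, DMH, PVH and VMH had 839 at the lowest, 3171 at the median and 5090 TPM at the highest. Every member lay higher in each LHA library than in any library of these nuclei, as did 3.71% of all genes. All 9 genes were called higher in LHA, against 2.32% of all genes. LHA is crossed by the medial forebrain bundle, a large fibre tract, whose part in this difference was not tested.

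Opalin was at 66.5, 58.4 and 57.7 TPM in LHA and at 5.65, 20.5 and 36.4 TPM (lowest, median, highest) in the medial nuclei, a log2 fold change of 2.00 ± 0.16 (edgeR adjusted p = 3.22e-14). Cldn11 was at 552, 343 and 421 TPM in LHA and at 39.7, 123 and 207 TPM in the medial nuclei, a log2 fold change of 2.22 ± 0.22 (edgeR adjusted p = 2.22e-11). Ermn had the highest log2 fold change (2.30 ± 0.16) and Cnp the lowest (1.65 ± 0.15). Of the other myelin genes 22 of 24 were called higher and of the transcription factors 4 of 9, while of the 3 neurofilament genes 1 was called (Nefm, 1.41) and the summed level went from 217 to 509 TPM to 645 to 710.0 TPM. Of the genes of precursors and premyelinating cells, Bcas1 (1.81) and Enpp6 (1.8) were called higher. The precursor genes Pdgfra (0.04), Cspg4 (0.13) and C1ql1 (0.41) were not called, nor were Gpr17 (0.26), Neu4 (0.44) and Lims2 (0.65). The astrocyte gene Gfap (1.04) and the red cell genes Hbb-bs (1.03) and Hbb-bt (1.17) were called higher too. The part of these cell types was not tested.

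The medial nuclei spread widely. ARH held 839 to 1458 TPM, the 2 VMH libraries 1298 and 3079 TPM, the 2 PVH libraries 3731 and 4950 TPM, and DMH 3171 to 5090 TPM. The values within VMH differed by more than those between several of the regions.

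In the cerebellum, the nuclei lie inside the white matter. How much white matter the punches of the lobules took was not measured, and its part in the values was not tested. CBN libraries had summed levels of 9292, 15658 and 14565 TPM. The 11 libraries of CENT2, CUL4,5 and UVU had 1177 at the lowest, 2020 at the median and 3199 TPM at the highest, and the 4 FL libraries had 7471, 8872, 10143 and 9180 TPM. For the sum, FL lay above the other lobules with no overlap, and its range overlapped that of the hindbrain nuclei. Opalin and Mal did not reach the hindbrain level in FL, since Opalin was at 18.96 to 27.3 TPM there, against 32.8 to 51.9 TPM in the hindbrain nuclei, and Mal at 225 to 279 TPM, against 287 to 383 TPM. All 9 genes were called higher in CBN than in the 4 lobules, against 11% of all genes, with log2 fold changes from 1.57 ± 0.14 (Cnp) to 2.57 ± 0.15 (Ermn). With FL left out, an alternative chosen after seeing its level, the values ran from 1.91 (Cnp) to 3.13 (Ermn) and all 9 remained called.

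Other cell types moved with CBN against the lobules. Choroid plexus genes, with 5 of 5 called higher, summed to 3540 to 12745 TPM in CBN, 38.0 to 3065 TPM in FL and 8.18 to 2114 TPM in the other lobules. Neurofilament genes, with 3 of 3 called higher, summed to 2496 to 2686 TPM in CBN, 573 to 2302 TPM in FL and 203 to 399 TPM in the other lobules. FL thus overlapped the other lobules for the choroid plexus genes and lay above them for the neurofilament genes, and no test of FL against them was made. Of 6 microglia genes 4 were called higher in CBN. The part of these cell types in the difference was not tested. Of the 8 genes of precursors and premyelinating cells 7 were called higher in CBN, Pdgfra at 1.2 and Gpr17 at 1.39 among them.

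Against the cerebral cortex, 7 of the 9 genes were called higher in the lobules, against 11.8% of all genes. Mal (0.92 ± 0.14) and Opalin (0.91 ± 0.13) stayed under the fold threshold with adjusted p of 5.51e-08 and 1.61e-08 (edgeR). Mal passed it without the first FRP library, at 1.005, and both passed it with limma on log2(TPM + 0.5), at 1.12 and 1.03. Without FL, 4 genes remained past both thresholds, and Mbp, Mobp and Cldn11 had log2 fold changes of 0.79, 0.89 and 0.59.

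In VTA and ACB, both of the reward system, 7 of the 9 genes were called higher in VTA, against 10.2% of all genes. The VTA libraries had summed levels of 6832, 12910 and 13934 TPM, and the ACB libraries 3704, 4917 and 3859 TPM. The lowest VTA value was that of the library with 39.6% mitochondrial TPM. In that library Cnp was at 131 TPM, under its lowest ACB value of 306 TPM, and Mag at 115 TPM, under 177 TPM. Ermn was at 79.9 TPM, above the highest ACB value of 34.45 TPM, so the members did not fall in 1 proportion there. Mbp was at 4963 TPM, also above the highest ACB value of 2874 TPM. However, the highest level and share of the short transcript Mbp-213 in an adult library, 3020 TPM and 60.9% of Mbp, match this library. Over all adult libraries its share was 2.42%, so the Mbp level here rests largely on that assignment. Without this VTA library all 9 genes were called, with Cnp at a log2 fold change of 1.19 in place of 0.86 ± 0.20 and Opalin at 1.06 in place of 0.98 ± 0.21. Mag fell under the fold threshold without the second VTA library (0.98 in place of 1.28 ± 0.27), Opalin passed it without the first ACB library (1.003) or the third VTA library (1.03), and limma on log2 TPM called 3 genes. Neurofilament genes moved with this difference too, at 1413 to 1944 TPM in VTA and 218 to 240 TPM in ACB. Of the neuron genes Elavl4 (2.49), Stmn2 (1.67), Snap25 (1.445) and Tubb3 (1.04) were called higher in VTA on the log2 scale. Of the astrocyte genes S100b (2.32), Aqp4 (2.25) and Gfap (1.49) were called higher and Slc1a3 (-1.22) lower. The part of these cell types was not tested.

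In the cortex, ACA libraries had summed levels of 615, 626.5 and 561 TPM, FRP libraries 1915, 792 and 1128 TPM, and ENT libraries 1010, 1023 and 879 TPM. Every ACA library lay below every FRP library for all members other than Mag, and the same was true of 7.6% of all genes. Mobp fell by 1.32 ± 0.30 and Ermn fell by 1.16 ± 0.26 on the log2 scale in ACA against FRP (edgeR adjusted p = 0.00544 and 0.00395), and these were the 2 members called lower, against 1.14% of all genes. No member was called higher, against 0.045% of all genes. The first FRP library decided this count: without it 0 members were called, and without the second FRP library 6 were. limma called 1 member (Ermn). The astrocyte gene Gfap was also called lower in ACA, with means of 21.9 TPM against 66 TPM. Its log2 fold change was -1.74 ± 0.29 (edgeR adjusted p = 5.69e-05). No other astrocyte gene was called, and the part of astrocytes was not tested.

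Between ENT and the mean of ACA and FRP 0 members were called by edgeR, against 1.96% of all genes higher, and 1 (Ermn, 0.60 ± 0.21) had an unadjusted p under 0.05. DESeq2 and limma also called 0. Between NTS (9971 to 13306 TPM) and its neighbour DVC (9023 to 9120 TPM) edgeR called 0 of the 9 as well, against 0.01% of all genes higher, with 1 (Ermn) at an unadjusted p under 0.05 and 0 calls by DESeq2 and limma. All 9 log2 fold changes were above 0, from 0.18 ± 0.20 (Opalin) to 0.56 ± 0.21 (Ermn, adjusted p = 0.506), and Mbp, Mog, Mag, Cnp and Ermn lay higher in every NTS library than in any DVC library, as did 2.29% of all genes.

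The lowest levels were those of the embryo and the mESC lines. The summed level was 42.1 at the lowest, 58.1 at the median and 85.1 TPM at the highest over the 9 embryonic libraries, and 19.98 to 25.3 TPM over the 4 mESC libraries. All 9 genes were called higher in the adult regions than in the embryonic ones, against 19.9% of all genes. The adult, embryonic and mESC libraries were prepared in separate batches, so these groups and their batches cannot be told apart.

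Mobp was at 0.0832, 0.358 and 1.98 TPM (lowest, median, highest) in the embryonic libraries and at 82.4, 679 and 2743 TPM in the adult ones, a log2 fold change of 10.99 ± 0.38 (edgeR adjusted p = 1.51e-31). Cldn11 had the smallest, 2.36 ± 0.20 (edgeR adjusted p = 1.19e-15). It was at 7.76, 27.1 and 49.6 TPM in the embryo and at 23.8, 152 and 552 TPM in the adult, and was the only member whose groups overlapped. Of all genes, 4.95% lay higher in every adult library than in any embryonic one. All 24 of the other myelin genes were called higher, and of the 8 genes of precursors and premyelinating cells 5 were, with log2 fold changes of 0.37, 0.76 and 0.49 for the precursor genes Pdgfra, Cspg4 and C1ql1. Astrocyte genes (8 of 8) and microglia genes (6 of 6) were called higher as well.

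**Figure D4:**
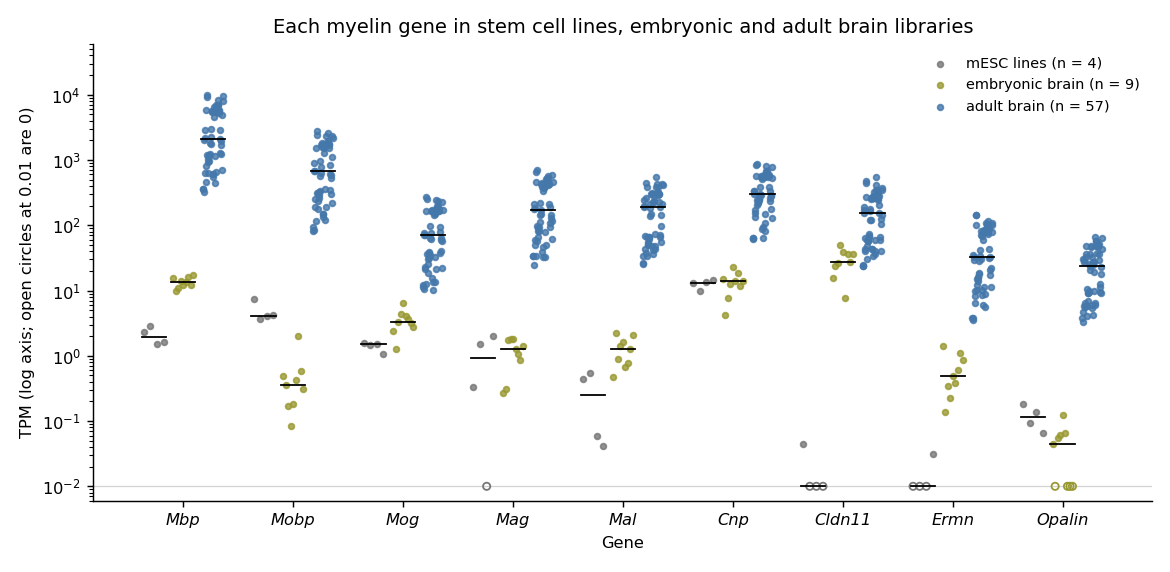
Level of each myelin gene in TPM (log axis) in each library of the mESC lines, the embryonic brain and the adult brain, with the median as a line; libraries listed at 0 are open circles at the lower edge. Cldn11 alone overlaps between embryonic (7.76 to 49.6 TPM) and adult libraries (23.8 to 552 TPM).

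Within the hypothalamus, all 9 genes were called higher in the adult nuclei than in THy/PHy, against 20% of all genes. Opalin had 0 counts in the 3 THy/PHy libraries and 6268 counts in the 14 adult ones, so it was at least 429-fold higher in the adult (from 3 counts over the embryonic group, a limit for counting error only). Within the hindbrain all 9 genes were called higher in PB, NTS and DVC than in H, against 21.1% of all genes. Opalin had 2 counts in the H libraries, a ratio of 918 (95% counting interval 254 to 7583), and Cldn11 rose from 23.7, 26.6 and 49.6 TPM to 243 to 342 TPM (median 263 TPM).

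The rise from embryo to adult was larger in the hindbrain than in the hypothalamus for 6 genes, by a test of the difference between both, against 3.46% of all genes. This test includes the adult difference between the same libraries. That was 1.73 for Mbp, 1.72 for Ermn, 1.69 for Mag, 1.60 for Mobp and Mog, and 1.02 for Cnp. Embryonic counts of Ermn were 24 in H and 90 in THy/PHy. The first H library had the fewest counts of all (9074581) and 22.6% mitochondrial TPM. The difference between both rises in log2 fold change was 3.38 ± 0.50 for Ermn, 2.28 ± 0.86 for Mobp, 2.15 ± 0.30 for Mbp, 2.15 ± 0.54 for Mag, 1.77 ± 0.25 for Cnp and 1.52 ± 0.40 for Mog. Mobp was the least firm of them (edgeR adjusted p = 0.0389), with embryonic counts of 14 in H and 27 in THy/PHy, and its call was lost when any of 5 embryonic libraries was left out (the second, 2.23, or the third, 1.70, of H, and the first, 2.13, second, 2.29, or the third, 2.41, of THy/PHy). Mal had 1.10 ± 0.45 (adjusted p = 0.0571), Cldn11 0.98 ± 0.35 (0.0295, under the fold threshold) and Opalin -1.58 ± 1.4 (0.417), which turned to 0.99 with limma at a pseudocount of 0.5 TPM. Mal passed both thresholds, with up to 1.37, when 1 of 5 libraries was left out (the second of ARH, the first of LHA or of VMH, the first or second of THy/PHy). Cldn11 passed them, with up to 1.18, when 1 of 7 was left out (the second of ARH, the third of H, the first of LHA, of NTS, of PVH or of VMH, the second of THy/PHy). With DESeq2 Mal passed as well (1.06, adjusted p = 0.0164), Cldn11 passed with limma at both pseudocounts (1.12) and without a filter on low counts (1.02), and Mobp lost its call without that filter (2.32, edgeR adjusted p = 0.0505).

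The transcripts of Mbp also differed by stage. In the adult libraries, Mbp-211, Mbp-206 and Mbp-215 held 40.6%, 30.3% and 17.9% of the TPM of the gene, all of which start at the downstream first exons from which the classic myelin basic proteins are made. In the embryo 63.7% (35.5% to 77.6% by library) was assigned to Mbp-205, of 4 exons and 195 residues, which starts at the upstream first exon of the gene, against 0.587% in the adult. In TPM it was at 3.51 to 12.1 in the embryo and 3.84 to 36.5 in the adult. Transcripts of the upstream start are those of the golli proteins, which neurons and immune cells make as well. The reads were short and single, so shares among overlapping transcripts are estimates.

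Between embryo and mESC lines, 5 genes were called higher in the embryo, against 29% of all genes, and 2 lower, against 26.8%. Mobp was at 3.69 to 7.30 TPM in the 4 mESC libraries, above every embryonic library, and fell by 3.57 ± 0.38 on the log2 scale in the embryo (edgeR adjusted p = 5.05e-12). Cldn11 had 1 count in all mESC libraries and 4422 in the embryonic ones, a ratio of 2013 (95% counting interval 361 to 79520). Cnp was at 9.82 to 14.6 TPM in the mESC and 4.29 to 23.1 TPM in the embryonic libraries, a log2 fold change of -0.25 ± 0.16 (edgeR adjusted p = 0.169), with full overlap. Opalin, the other gene called lower, rested on 10 counts in the mESC and 6 in the embryonic libraries, and its call was lost without the first library of B6-1 (-1.85) or of B6-2 (-1.78). Mag (1.81 ± 0.81) lost its call without these libraries (1.60 and 1.21) or without the second M library (1.70). With limma neither Mag (0.23 and 0.60 at pseudocounts of 0.5 and 0.1) nor Opalin (-0.19 and -0.63) was called, and Mog was called at a pseudocount of 0.1 (1.14).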

How the data were processed

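The tissue was punched from frozen sections, and the authors made strand-specific mRNA libraries and read them as short single reads. They converted the raw sequence data to read files with CASAVA 1.8.2 and quantified the reads with Kallisto on GRCm38 cDNA. They deposited estimated counts per transcript and TPM per gene, the latter summed over transcripts by the authors. Levels are the deposited TPM. For the tests, the deposited estimated counts were summed per gene (98.8% of transcripts matched), rounded and fitted with edgeR 4.0.16 (R 4.3.3; TMM, quasi-likelihood test, 24 groups of 70 libraries, 19980 genes kept by filterByExpr) with Benjamini-Hochberg adjustment over all genes tested. Calls needed both an adjusted p below 0.05 and a log2 fold change beyond 1 in either direction. limma 3.58.1 on log2(TPM + 0.5) or log2(TPM + 0.1), DESeq2 1.42.0 and other filters were alternatives.

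Named were all 9 members, genes of the marker lists, and other genes among the 10 most like the members. A further planned comparison is not reported here. The members, though named without measured values, and the lists were chosen with earlier results of these data known. On simulated counts for hindbrain nuclei against hypothalamus, edgeR called 183 of 183 tested genes changed 4-fold, and 1 unchanged gene. The members changed less than that in this comparison (log2 fold changes from 1.02 for Cnp to 1.73 for Mbp). The simulation therefore does not cover changes of their size. Replicates of a region were pools of mice; where pools shared mice, p-values cover the spread between these libraries only. No 2 replicates agreed within sampling noise (chi-square per gene of 2.6 or more over 74 pairs). Batch numbers were listed for each region but not for each library, so no comparison was made within a batch.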

Additional observations from a re-analysis of the deposited data

Results flagged for a closer look

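Among 50 groups of 4 libraries checked gene by gene, 4 had a library far from the other 3, where chance alone marks about 1 in 20. The groups share libraries and hold correlated genes, so they are not independent, and no excess over chance is claimed. Mobp was at 2594 TPM in the third NTS library, against 1824 to 1925 TPM in the others, and Opalin was at 37.5 TPM in the same library, against 48.3 to 48.9 TPM. Cnp was at 386 TPM in the second DMH library, against 289 to 304 TPM, and at 589 TPM in the third FL library, against 540.1 to 545 TPM.

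The rise from embryo to adult differed between hindbrain and hypothalamus by the test of the difference itself (edgeR quasi-likelihood test) for Mbp (2.15), Mobp (2.28), Mog (1.52), Mag (2.15), Cnp (1.77) and Ermn (3.38), each as a difference of log2 fold changes, hindbrain minus hypothalamus.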

How the results depend on the processing

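The summed level kept ACA lowest and CBN highest under the 4 other ways of scaling or summing, with CBN at 18.2 to 22.7 times ACA and a Spearman correlation with the reported order of 0.992 or more. Precision was limited by 2 to 4 libraries per adult region and by few counts in the embryo and mESC lines. The count of genes called in lobules against cortex went from 7 to 4 without FL. In VTA against ACB limma called 3 genes with either pseudocount. In ACA against FRP the count was 1 with limma at either pseudocount, 6 without a fold threshold and 0 to 6 when 1 library was left out. Of the 10 genes most like the members, 4 were shared over all 22 brain regions and 6 with Spearman's rho. The cause of these changes was not tested.

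With limma at pseudocounts of 0.5 and 0.1, the direction turned for Cnp in embryo against mESC (0.0526 and 0.0499), for Mag (-0.0211 and -0.0205) and Cnp (-0.0388 and -0.0388) in ENT against ACA and FRP, and for Opalin in the stage difference (0.99 and 0.67), on the log2 scale. When 1 library was left out, direction turned in ENT against ACA and FRP for Cnp (-0.0542 to 0.156), Mag (-0.0874 to 0.1996) and Opalin (-0.0783 to 0.116).

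Libraries of different regions share replicate numbers. With the replicate block the counts of members called were as reported in every comparison, for example 7 in VTA against ACB and 2 in ACA against FRP. For adult libraries of the same number in different regions, the median correlation was 0.0127 (-0.196 to 0.318). For libraries of different numbers it was -0.0057. Of the 57 adult libraries, 24 were nearest to their own number. Whether the numbers mark shared deviations was not tested. The labels do not say that they mark shared mice or batches. The unchanged counts therefore cannot show whether shared mice or batches affect the calls.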

Other observations

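In the hindbrain nuclei against the hypothalamus 1 of 9 transcription factors of the lineage was called higher, namely Myrf, which drives the genes of mature oligodendrocytes, with a log2 fold change of 1.39 ± 0.11 (edgeR adjusted p = 3.44e-16), while Sox10 (1.00 ± 0.18, adjusted p = 4.56e-06), Zfp536 (0.87), Olig1 (0.62) and Olig2 (0.58) passed the adjusted p under the fold threshold. Nkx6-2 had 0.25, Zfp488 0.01, St18 -0.06 and Nkx2-2 -0.33. In the cerebellar nuclei against the lobules 5 were called higher, with Olig1 at 2.30, Olig2 at 2.26 and Sox10 at 2.23, and St18 fell by 1.46 ± 0.20 (edgeR adjusted p = 2.11e-08), from a mean of 46.6 TPM in the lobules to 13.3 TPM in the nuclei. St18 was at a mean of 1.37 TPM in the cortex.

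Of the 8 genes of precursors and of committed cells before myelination, 2 were called higher and 0 lower in the same comparison of hindbrain nuclei with hypothalamus (edgeR), and 5 had an adjusted p under 0.05. Pdgfra and Gpr17 had log2 fold changes of -0.44 ± 0.13 and -0.44 ± 0.09 (edgeR adjusted p = 0.00356 and 4.32e-05), under the fold threshold. Bcas1 and Enpp6 were called higher, at 1.61 ± 0.10 and 1.30 ± 0.14, and C1ql1 and Lims2 had 0.32 and 0.30. Whether these genes differ from the myelin genes was not tested.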
